A study of Mus musculus with 2 samples.

Results

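The miR-30 family was followed on a microarray of mouse microRNAs (miRNAs), through every probe named for mmu-miR-30a, mmu-miR-30b, mmu-miR-30c, mmu-miR-30d or mmu-miR-30e (mmu, for mouse, is left out below), on either arm of the precursor. The rule gave 11 of the 1900 mouse miRNA probes, 5 for the 5p arms and 6 for the 3p arms, each with 1 spot per array. The study compared mononuclear cells isolated from the lamina propria of the colon, the immune-cell-rich layer under the gut epithelium, of specific pathogen-free (SPF) male Balb/c mice, which carry a gut microbiota, with those of germ-free male Balb/c mice, which carry none. There was 1 array for SPF mice and 1 array for germ-free mice, and the labels give neither the age nor the number of animals behind an array. With 1 array per group no difference below has a replicate error or a test, and every fold describes these 2 arrays.

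miRNAs are cut from a hairpin precursor, whose arms give a 5p and a 3p product. The product that is loaded into an Argonaute protein pairs with messenger RNAs mainly through its seed, bases 2 to 8, and lowers their translation and stability. The miR-30 family is expressed in many tissues, and its 5p arms share a seed and are usually the abundant products. Among the known targets of the 5p arms are the transcription factor Snai1, a driver of epithelial-mesenchymal transition, in mouse hepatocytes, the autophagy gene BECN1 in human cells, and the Notch ligand DLL4 in human endothelial cells.

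RefSeq mature sequences (build GRCm38.p6) were matched by name for 7 of the 11 probes, and for miR-384-5p and miR-30f. miR-30b-5p, miR-30b-3p, miR-30d-5p and miR-30d-3p were not matched. The 5p sequences are shown because they carry the shared seed, in capitals, and because the probes must tell members apart by the bases after it.
miR-30a-5p: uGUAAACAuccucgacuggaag
miR-30c-5p: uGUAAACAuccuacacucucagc
miR-30e-5p: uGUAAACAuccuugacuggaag
miR-384-5p: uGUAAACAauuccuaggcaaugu
The 3 miR-30 sequences share their first 12 bases. miR-30a-5p and miR-30e-5p are both 22 bases long and differ at 1 base, C13U, with miR-30a-5p first and positions counted from 1 at the 5′ end. Of the 1614 array probes with a mature sequence of their own name, 4 (0.248%) have the seed GUAAACA, which are these 3 and miR-384-5p. The sequence of the probes themselves is not given in the sources used here, so cross-hybridisation between miR-30a-5p and miR-30e-5p was not tested.

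The 3p arms have other seeds, again in capitals, and form groups of their own.
miR-30a-3p: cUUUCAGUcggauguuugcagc
miR-30e-3p: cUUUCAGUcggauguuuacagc
miR-30c-1-3p: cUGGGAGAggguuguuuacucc
miR-30c-2-3p: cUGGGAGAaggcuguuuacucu
miR-30a-3p and miR-30e-3p share the seed UUUCAGU and differ at 1 base, G18A, with miR-30a-3p first. miR-30c-1-3p and miR-30c-2-3p share the seed UGGGAGA and differ at 3 bases, G9A, U12C and C22U, with miR-30c-1-3p first. The hairpin of Mir30e is shown with both arms in capitals, since it carries the 5p arm with the most negative difference between the arrays.
Mir30e: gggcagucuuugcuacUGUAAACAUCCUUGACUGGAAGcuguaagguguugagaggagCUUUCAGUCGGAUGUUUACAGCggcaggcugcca

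The family is encoded by 6 genes in 3 pairs, whose positions are those of GENCODE M21 on GRCm38, the genome of another mouse strain than Balb/c. On chromosome 4, Mir30e (chr4:120772606-120772697, minus strand) and Mir30c-1 (chr4:120769534-120769622, minus strand) lie 2983 bases apart, within introns of Nfyc on its strand. Nfyc encodes a subunit of the CCAAT-binding factor NF-Y. On chromosome 1, Mir30a (chr1:23272269-23272339, plus strand), which overlaps no other gene, and Mir30c-2 (chr1:23291701-23291784, plus strand), which overlaps an exon of the lincRNA Gm27028, lie 19361 bases apart. On chromosome 15, Mir30b (chr15:68337415-68337510, minus strand) overlaps an exon of the noncoding gene Gm26621, and Mir30d (chr15:68341208-68341289, minus strand) overlaps exons of the noncoding genes Gm20732 and Gm37296, 3697 bases away. The mature miR-30c-5p is the same from Mir30c-1 and Mir30c-2, so its probe reads both genes, while their 3p arms have a probe each.

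All values below are net intensities, the median spot intensity minus the mean of the array's blank spots (158.3 on the SPF array and 128.5 on the germ-free array). SPF values were multiplied by 0.849, which made the median of the 1471 miRNA probes above the floor on both arrays equal. The floor lay 2 SD of the blanks above their mean, which is 9.05 net on either array after scaling. A stricter level, the mean + 2 SD of the no-probe spots, lay at a net 37.3 on the SPF array and 37.2 on the germ-free array. Repeated spots of 5 bright control probes gave a technical SD of 0.128 for a log2 difference between single spots, and those of 5 dim ones, at net intensities from 17.1 to 65.7, gave 0.478. These SDs hold the spread within an array, not that between RNA isolations, labellings or hybridisations.

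The 5p arms gave 94.0% of the family's net signal on the SPF array and 94.4% on the germ-free array. Signals of different probes are not relative abundances, since probes differ in how well they bind. All 5 lay between ranks 103 and 236 of 1900 on the SPF array and between ranks 95 and 186 on the germ-free array. Their signals were lower on the SPF array in all 5 cases under the median scaling, though in 4 with quantile or loess scaling, 2 without scaling and 0 with local background subtracted. The median log2 SPF over germ-free was -0.22, or 1.17-fold lower, with a range from -0.59 to -0.06. Of all 1471 shared probes, 57.6% were lower on the SPF array, as were 60% of the 210 probes at least as bright as the dimmest 5p arm.

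miR-30e-5p, from the Nfyc intron, had a net intensity of 676 on the SPF array and 1019 on the germ-free array. This was the largest difference of the family's 5p arms, with a log2 of -0.59 or 1.51-fold lower, 4.61 technical SDs below 0. miR-30b-5p, from chromosome 15, had 1949 on the SPF array and 2642 on the germ-free array, a log2 of -0.44. It was the brightest member on the germ-free array, and miR-30c-5p was the brightest on the SPF array. miR-30c-5p had 2232 on the SPF array and 2577 on the germ-free array, a log2 of -0.21. miR-30a-5p had 953 on the SPF array and 1112 on the germ-free array, a log2 of -0.22. These intermediate values were 1.61 and 1.74 technical SDs below 0. miR-30d-5p, encoded beside miR-30b, had 1404 on the SPF array and 1460 on the germ-free array, a log2 of -0.056, less than 1 technical SD. It stood at the median of all shared probes, which was itself at -0.056.

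**Figure D1:**
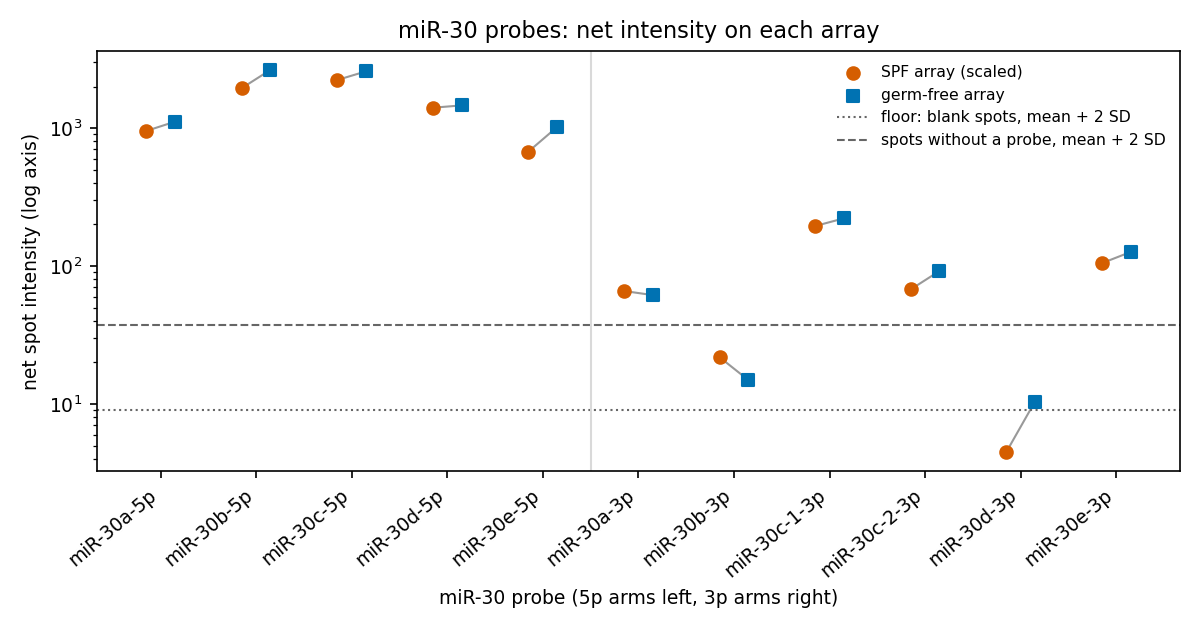
Net spot intensity (log axis) of the 11 miR-30 probes, with the scaled SPF array as circles and the germ-free array as squares, joined for each probe. The 5p arms lie between 676 and 2642 and are lower on the SPF array in all 5 cases under this scaling (2 without scaling), while the 3p arms lie between 4.48 and 222, with miR-30d-3p under the dotted floor on the SPF array and miR-30b-3p and miR-30d-3p under the dashed no-probe level on both arrays.

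No member reached a 2-fold difference, which 2.99% of the shared probes and 4.29% of the 210 bright ones did in either direction. At 1.5-fold, miR-30e-5p alone passed, just over the threshold, against 7.61% of shared probes that passed it in the same direction, 4.62% that passed it in the other, and 7.14% of the 210 bright probes in the same direction. It fell short of 1.5-fold lower in 12 of 15 alternatives, with a log2 of -0.53 under quantile scaling, -0.41 after correction for block medians and -0.36 without scaling. Its log2 lay at percentile 7.48 of the shared probes, and that of miR-30b-5p at percentile 13.5. miR-30a-5p and miR-30c-5p lay at percentiles 29.4 and 31.1. The order of the 5p log2 values before correction for block medians, from lowest, was miR-30e, miR-30b, miR-30a, miR-30c and miR-30d. No neighbours in that order differed by more than 1.19 SDs of such a difference (0.182). Among all 10 pairs, 4 differed by more than 2 of these SDs before correction for block medians. Of these, 3 included miR-30e-5p and the other was miR-30b-5p with miR-30d-5p. The count was not taken after that correction, under which miR-30e-5p stood at -0.41, miR-30c-5p at -0.35 and miR-30d-5p at -0.028. The share among pairs of other probes was not taken either. The log2 values of the 210 bright probes had an SD of 0.42, with quartiles of -0.28 and 0.18, so the count is not read as a trait of the family.

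**Figure D2:**
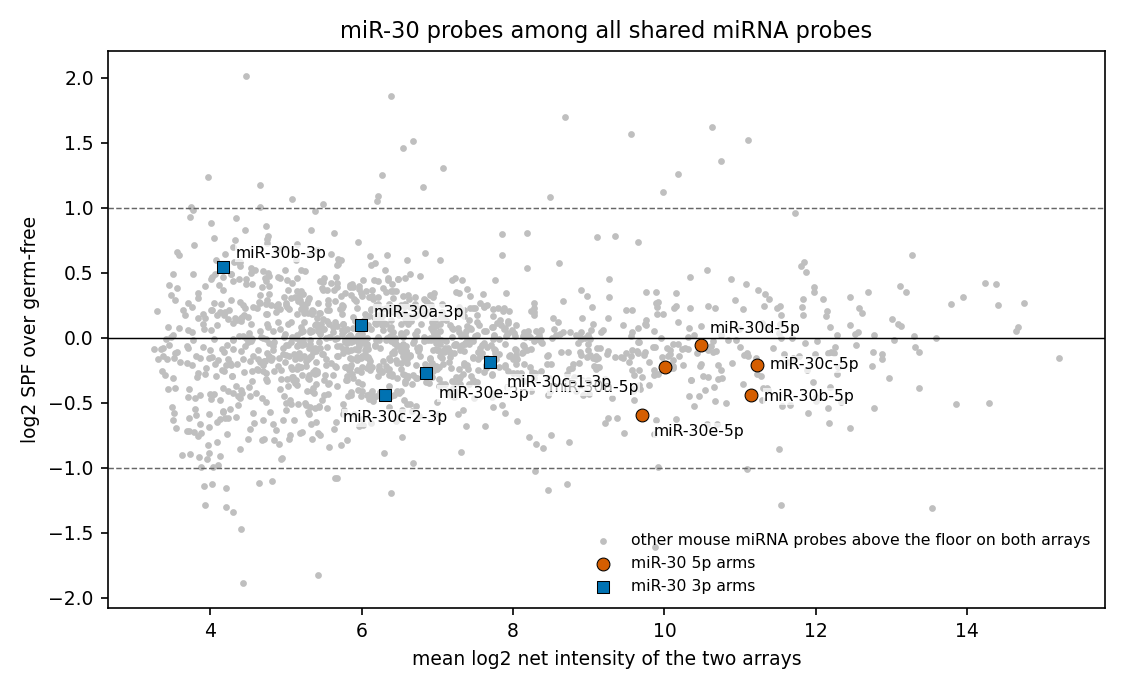
Log2 SPF over germ-free against mean log2 net intensity of both arrays for the 1471 probes above the floor on both, with miR-30 5p arms as circles, 3p arms as squares and all other probes in grey. Dashed lines mark 2-fold. The 5p arms lie between -0.59 and -0.06 among the bright probes under this scaling (3 of them above 0 without it), and no miR-30 probe reaches a dashed line.

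Differences between members do not depend on a scale factor common to the array. They can depend on position, since the 5p spots lie in different blocks. After correction for block medians the log2 was -0.41 for miR-30e-5p, -0.35 for miR-30c-5p, -0.29 for miR-30b-5p, -0.13 for miR-30a-5p and -0.028 for miR-30d-5p. miR-30c-5p was then next lowest after miR-30e-5p, and the ratios below are not corrected in this way. The signal of miR-30e-5p was 0.709 of that of miR-30a-5p on the SPF array and 0.916 on the germ-free array, and their mature sequences differ at 1 base. It was 0.481 of the miR-30d-5p signal on the SPF array and 0.698 on the germ-free array. For the pairs of neighbouring genes, such ratios can be compared between the arrays but not read as relative abundances. On chromosome 15, miR-30b-5p was 1.39 times as bright as miR-30d-5p on the SPF array and 1.81 times as bright on the germ-free array. On chromosome 4, miR-30e-5p was 0.303 of miR-30c-5p on the SPF array and 0.395 on the germ-free array, but the miR-30c-5p probe also reads the gene on chromosome 1.

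The direction of the 5p arms rested on how the arrays were scaled. Without scaling the 5p median was 0.013, with 2 of 5 arms lower on the SPF array, namely miR-30e-5p at -0.36 and miR-30b-5p at -0.20. The median of the shared probes moved by about as much between these settings, to 0.18 without scaling. Relative to the median shared probe the 5p median was therefore -0.17 under both. Over the 14 alternatives other than local background subtraction, that relative value ran from -0.29 to -0.14. With the 5 bright control probes set equal, the 5p median was -0.33. Those control probes stood at log2 values from 0.07 to 0.22 under the main scaling, and the 5 dim ones at -0.80 to 0.18.

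Subtracting each spot's own local background turned all 5 values round, to 0.25 for miR-30e-5p, 0.42 for miR-30b-5p, 1.63 for miR-30c-5p, 3.88 for miR-30d-5p and 6.39 for miR-30a-5p. The local background at the miR-30a-5p spot was 272 on the SPF array and 1232 on the germ-free array, beside spot intensities of 1280 and 1241, so that it was 21.2% of the spot's intensity on the SPF array and 99.3% on the germ-free array. For the other 5p arms it was 39.3% to 92.5% on the SPF array and 71.5% to 96.5% on the germ-free array. The median over the 210 probes as bright was 41.4% on the SPF array and 65.1% on the germ-free array. Repeated bright control spots spread by an SD of 1.30 within an array under local background subtraction, against 0.0908 with the blank mean.

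**Figure D3:**
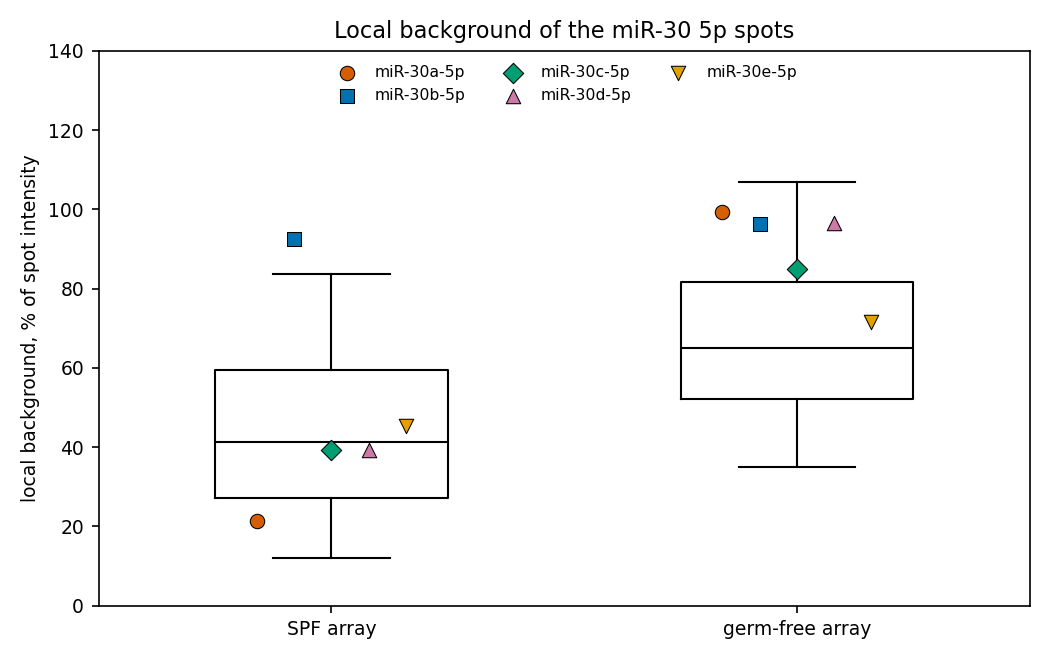
Local background as a percentage of spot intensity for the 5 miR-30 5p spots (symbols) on each array, over boxes of the 210 probes at least as bright (line at the median, box from the lower to the upper quartile, whiskers from percentile 5 to percentile 95). On the germ-free array 4 of the 5 spots lie above the upper quartile of 81.7%. On the SPF array only miR-30b-5p, at 92.5%, lies above the upper quartile of 59.4%.

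Base composition moved with the difference among bright probes. The matched 5p sequences hold 40.9% to 45.5% G and C. Among the 186 probes as bright as the 5p arms that have a sequence, the 46 with under 50% G and C had a median log2 of -0.25 and 69.6% of them were lower on the SPF array. The other 140 had a median of -0.028, with 55% lower. The Spearman correlation of G and C content with log2 SPF over germ-free was 0.27 over these 186 probes and 0.039 over 1250 shared probes. These points share the 2 arrays and are not independent, and the part of base composition in the miR-30 values was not tested.

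The 3p arms were dim, with 5 of 6 above the floor on both arrays and 4 of 6 above the no-probe level. The median log2 over those 5 was -0.18 (0.051 without scaling), with 3 lower and 2 higher on the SPF array. Of all shared probes, 57.6% were lower under the main scaling. The 5 dim control probes had log2 values from -0.80 to 0.18 under the main scaling. The 3p median is the value of miR-30c-1-3p, which was brighter than those controls, so their range does not measure its spread. The SD of 0.478 was measured on control probes no brighter than 65.7, and the bright controls began at 280, so no technical SD was measured at the intensities of miR-30c-1-3p, miR-30e-3p and miR-30c-2-3p. miR-30c-1-3p, from the Nfyc intron, was the brightest, with a net 195 on the SPF array and 222 on the germ-free array and a log2 of -0.18. miR-30e-3p, from the same intron, had 105 on the SPF array and 126 on the germ-free array, a log2 of -0.27. miR-30c-2-3p had 67.7 on the SPF array and 92.0 on the germ-free array, a log2 of -0.44. miR-30a-3p, from the neighbouring gene on chromosome 1, had 65.9 on the SPF array and 61.6 on the germ-free array, a log2 of 0.099. For miR-30a-3p, at the upper end of the dim controls, the difference was less than their SD of 0.478.

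Both remaining 3p arms belong to chromosome 15 and lay under the no-probe level on both arrays. miR-30b-3p had a net 21.8 on the SPF array and 14.9 on the germ-free array, a log2 of 0.55, which was 0.19 when the blank spots of its own block were subtracted. miR-30d-3p had 4.48 on the SPF array, under the floor, and 10.4 on the germ-free array, just above it, so that its log2 is -0.20 or lower. Its detection on the germ-free array is not distinguishable from the no-probe spots.

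The 5p signal exceeded the 3p signal on both arrays in all 5 precursors that could be compared, from 6.45 times on the SPF array and 8.06 times on the germ-free array in miR-30e to 89.3 and 177 times in miR-30b, where the 3p value is close to the floor. For miR-30a the ratio was 14.5 on the SPF array and 18.1 on the germ-free array, for miR-30c-1 11.4 and 11.6, and for miR-30c-2 33.0 and 28.0. The share of all precursors with more 5p than 3p signal was not taken, so the count of 5 is not read as a trait of the family. Signals of different probes are not relative abundances, and these ratios are no exception. The 5p minus 3p difference in log2 SPF over germ-free was -0.99 for miR-30b, -0.32 for miR-30a, -0.32 for miR-30e, -0.023 for miR-30c-1 and 0.23 for miR-30c-2. The miR-30b value is taken against a 3p probe under the no-probe level on both arrays, and was -0.63 with the blank spots of the same block, -0.53 without background subtraction and -0.52 after correction for block medians. Over all 489 precursors with both arms above the floor on both arrays, the median was -0.049, with quartiles of -0.29 and 0.20. miR-30c-1 and miR-30c-2 share the value of the 5p probe.

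**Figure D4:**
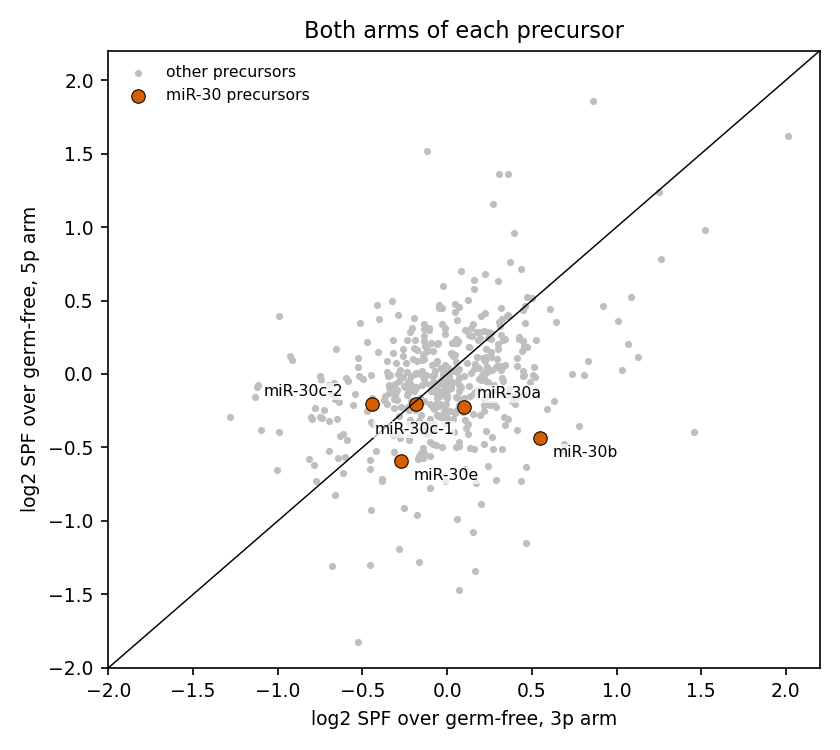
Log2 SPF over germ-free of the 5p arm against that of the 3p arm, for 489 precursors with both arms above the floor on both arrays (grey) and the 5 miR-30 precursors among them (circles, labelled). The diagonal marks equal values. Of the 5 miR-30 precursors, miR-30b lies farthest under it, at -0.44 for the 5p and 0.55 for the 3p arm, and miR-30c-1 lies almost on it.

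Other probes with ties to the family were dim. miR-384-5p, which has the miR-30 seed and is encoded on chromosome X, was under the floor on both arrays, with spot intensities of 163.7 on the SPF array and 126.4 on the germ-free array. miR-30f, singled out here after its values were seen, is annotated on the strand opposite Mir30e at the same position and has the seed UAAACAU. Its net intensity was 80.8 on the SPF array and 80.7 on the germ-free array, a log2 of 0.0014. A list of 16 other miRNAs known from many tissues, all above the floor on both arrays, held 8 lower and 8 higher members, with a median log2 of -0.021 (0.21 without scaling) and a range from -0.62 to 0.53. None of the 16 reached 2-fold under this scaling.

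Markers of cell types were read on the same arrays. All 4 lymphocyte and all 4 pan-leukocyte and myeloid markers were above the floor on both arrays. So were 1471 of the 1900 mouse miRNA probes, and detection does not tell cell types apart here. The lymphocyte markers, among them miR-150-5p and miR-342-3p, summed to a net 9100 on the SPF array and 21042 on the germ-free array. Most of that was miR-150-5p alone, with 7552 on the SPF array and 18700 on the germ-free array. All 4 were lower on the SPF array, also without scaling, as were 57.6% of all shared probes under the main scaling. That share was not taken without scaling. The pan-leukocyte and myeloid markers, such as miR-142a-3p and miR-223-3p, summed to 8327 on the SPF array and 11479 on the germ-free array, with 2 of 4 lower. The intestinal epithelium markers, such as miR-192-5p and miR-200b-3p, were all above the floor. They summed to 14755 on the SPF array and 5631 on the germ-free array, with 9 of 10 at least 2-fold higher, as were 1.56% of all shared probes. That count was 7 of 10 with scaling on control probes, 5 of 10 without background subtraction and 0 of 7 with local background subtracted, where the 1 lymphocyte marker with a value was higher on the SPF array. Erythroid markers summed to 4694 on the SPF array and 5669 on the germ-free array over 3 probes, all lower but 2 of 3 without scaling. The smooth muscle, stroma and endothelium markers summed to 1274 on the SPF array and 1294 on the germ-free array, with miR-1a-3p under the floor on both. Of the 6 above it, 5 were higher on the SPF array and 1, miR-214-3p, was lower, beside 57.6% of all shared probes. miR-214-3p had 495 on the SPF array and 629 on the germ-free array. Scaling on control probes gave 3 higher and 3 lower. In RNA from mixed cells, fewer cells of a type and less RNA per cell cannot be told apart, and the part of cell composition in the miR-30 values was not tested.

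**Figure D5:**
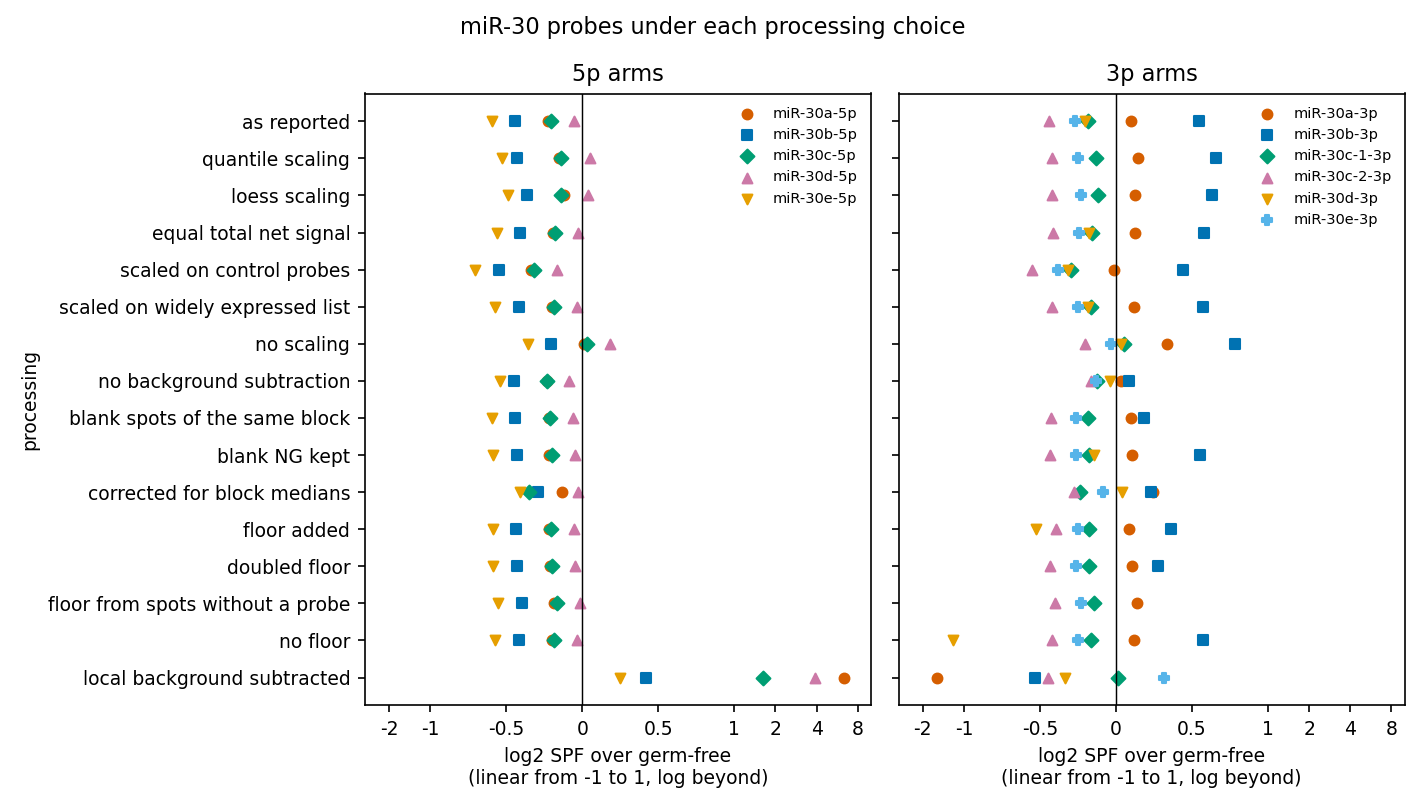
Log2 SPF over germ-free of each miR-30 probe (symbols) as reported and under 15 alternatives (rows), with 5p arms on the left and 3p arms on the right. The axis is linear between -1 and 1 and logarithmic beyond. Values of miR-30d-3p are bounds except without background subtraction, with a floor added, without a floor and with local background subtracted. The value of miR-30b-3p with a doubled floor is also a bound. miR-30e-5p and miR-30b-5p are below 0 in every row but the last, where local background was subtracted and all 5p arms are above 0.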

How the data were processed

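The deposited files hold the median spot intensity and the median local background intensity of 3200 spots in 32 blocks. Per the file headers, scans were taken at 3 gains joined by least-squares lines. Per the labels' protocols, Qiagen reagents served for RNA extraction and an Exiqon kit for labelling with the dye Hy5. Not given in the sources used here are the platform, the image software and any pooling of animals. Each array's blank mean was subtracted (895 spots on the SPF array, after leaving out 1 blank spot marked NG, and 896 on the germ-free array), and SPF values were scaled to the germ-free median of the 1471 shared probes. In all, 1511 probes were above the floor on the SPF array and 1539 on the germ-free array. A value under the floor on 1 array was set to the floor, giving a bound. Log2 SPF over germ-free was then taken, and a fold of 2 served as threshold. Precision is limited by the number of arrays, and no test between groups was made. Bright control probes were those at least 2 times the blank mean on both arrays. Alternatives covered scaling (quantile, loess with span 0.4, total signal, control probes, widely expressed list, none), background, block medians, pseudocount, floor and other fold thresholds. The procedure was run on simulated arrays with spot noise and a common scale factor. These held no block effect, local background or difference between hybridisations, so the simulation does not bear on those. Members, lists and alternatives were chosen with earlier results of these data known. All members were named, and so was every probe with the miR-30a-5p seed among the 1614 that had a matched sequence. Work was done in Python 3.11.15 with pandas 2.3.3, numpy 2.4.6 and statsmodels 0.14.6.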

Additional observations from a re-analysis of the deposited data

How the results depend on the processing

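The 5p median kept its sign under 13 of 15 alternatives and was 0.013 without scaling and 1.63 with local background subtraction. The 3p median ran from -0.39 to 0.051. The number of probes lower on the SPF array was 8 of 10, beside 57.6% of all shared probes. It was 4 without scaling and 4 of 11 with local background subtraction. The share was not taken under these 2 settings, and the median of all shared probes was 0.18 without scaling. The number past 2-fold, 0, was 4 with local background subtraction and 1 (miR-30d-3p) without a floor. With other thresholds the number was 1 at 1.5-fold and 4 at the lowest threshold tried, and stayed 0 at 3-fold. The share of all shared probes was not taken at the lowest threshold, at 3-fold, without a floor or with local background subtraction. No count of 4 given here is therefore read as a trait of the family. The probe past 1.5-fold, miR-30e-5p, passed in the same direction in 3 of 15 alternatives (control-probe scaling, blank spots of the same block and an added floor). miR-30b-3p was past 1.5-fold higher with quantile scaling (0.66), loess scaling (0.63) and no scaling (0.79). Without scaling, miR-30a-5p was at 0.013 and miR-30c-5p at 0.029. With local background subtraction, miR-30a-5p was at 6.39, miR-30b-5p at 0.42, miR-30c-5p at 1.63, miR-30e-5p at 0.25 and miR-30b-3p at -0.53, and the 5p minus 3p difference of miR-30b was 0.95. The scale factor sets the first of these shifts, and the cause of those under local background subtraction was not tested. Of 232 values of single probes and precursors under alternatives, 211 moved by less than the technical SD, taken from the dim controls for all 3p arms. miR-30d-5p lay above 0 with quantile scaling (0.054), loess scaling (0.035) and no scaling (0.18). No paired analysis was possible because each group has 1 array. Signals near the floor, those of miR-30b-3p and miR-30d-3p, limit any statement on these arms.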
